A study of Mus musculus with 12 samples.

Results

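The dystrophin-glycoprotein complex was examined through 8 genes, Dmd, Utrn, Dag1, Sgca, Sgcb, Sgcd, Dtna and Sspn, taken by gene symbol from a table of 55385 mouse genes. All 8 were found, each under 1 Ensembl identifier. The series as a whole concerns small nucleolar RNA expression and ribosomal RNA processing during differentiation, and it also holds small RNA libraries of mouse embryonic stem cells, which are not used here. The libraries used were made from ribosome-depleted total RNA of C2C12 cells, an established mouse myoblast line that fuses into myotubes. One group was 3 libraries of undifferentiated C2C12 myoblasts, labelled as the control, and the other was 3 libraries of C2C12 cells differentiated into myotubes for 7 days. The labels name no engineered allele and no added agent for either group. All 6 libraries come from 1 clonal cell line without nerve, vessel or other tissue cells, and no label names a step that separates myotubes from unfused cells. No label states that replicates came from separate cultures, so the p-values measure the spread between these libraries, which may be technical.

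The complex links the actin cytoskeleton of a muscle fibre to the extracellular matrix. Dystrophin (Dmd), or its homologue utrophin (Utrn), binds actin inside the cell and binds beta-dystroglycan at the membrane. Alpha-dystroglycan, cut from the same Dag1 product, carries a sugar chain that binds laminin outside. The sarcoglycans and sarcospan (Sspn) are membrane proteins that stabilise this link, and alpha-dystrobrevin (Dtna) and the syntrophins bind dystrophin on the inner side and carry signalling proteins. Loss of dystrophin causes Duchenne muscular dystrophy, and loss of alpha-, beta- or delta-sarcoglycan causes a form of limb-girdle muscular dystrophy.

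The 6 libraries held 18335785 to 54083215 counts in genes. In the comparison of myotubes with myoblasts, 15932 genes were tested with the edgeR quasi-likelihood F-test, and a gene is called when its Benjamini-Hochberg adjusted p is under 0.05. Of these, 20.5% were called higher and 19.6% lower, so that 51.1% of all calls were higher. With library size scaling in place of TMM, 42.1% of calls were higher, and the median change over all tested genes went from 0.06 to -0.065 on the log2 scale. Summed over 19 sarcomere genes, the level in CPM (counts scaled to library depth with TMM factors) was 163.6 to 295.0 in myoblasts and 13650, 27760 and 31720 CPM in myotube replicates 1, 2 and 3. Summed over 10 proliferation genes, it was 3081 to 3209 CPM in myoblasts and 1096, 297.6 and 242.7 CPM in myotubes. Myotube replicate 1 therefore had the lowest sarcomere sum and the highest proliferation sum of its group. Of the 6 skeletal muscle markers 5 were called higher, and Myod1 was the exception (-0.50 on the log2 scale, adjusted p = 0.502, and -0.67, adjusted p = 0.0457, with the replicate block). Markers of other cell types were low in both groups. Their summed CPM lay between 0 and 0.387 for adipocytes, 0.058 and 0.706 for endothelium, 1.57 and 2.72 for macrophages, 0.696 and 5.28 for osteoblasts and 1.36 and 7.69 for Schwann cells. Adipoq, Cidec, Cfd, Emcn and Sox10 had no count in any library. Csf1r, a macrophage marker, was called higher (2.22 on the log2 scale, adjusted p = 0.0359), but not with the replicate block or without myoblast replicate 1 or 3 or myotube replicate 1 or 3 (adjusted p from 0.0512 to 0.123). The share of counts from mitochondrially encoded genes was 0.953 to 1.96% in myoblasts and 4.52 to 5.68% in myotubes, and its part in the results was not tested.

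All 8 members were higher in myotubes, and for each of them every myotube library lay above every myoblast library. Dmd passed the filter on low counts only through the myotubes and so had to differ. The other 7 passed it in both groups. All 7 were called higher, against 17.5% called higher among the 13029 genes that passed in both groups. Their median log2 fold change was 1.22, while that of those 13029 genes was -0.041. Groups that did not overlap, with myotubes higher, were found for 28.7% of all tested genes. In bulk RNA, a change in the share of cells that express a gene and a change in RNA per cell cannot be told apart.

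**Figure D1:**
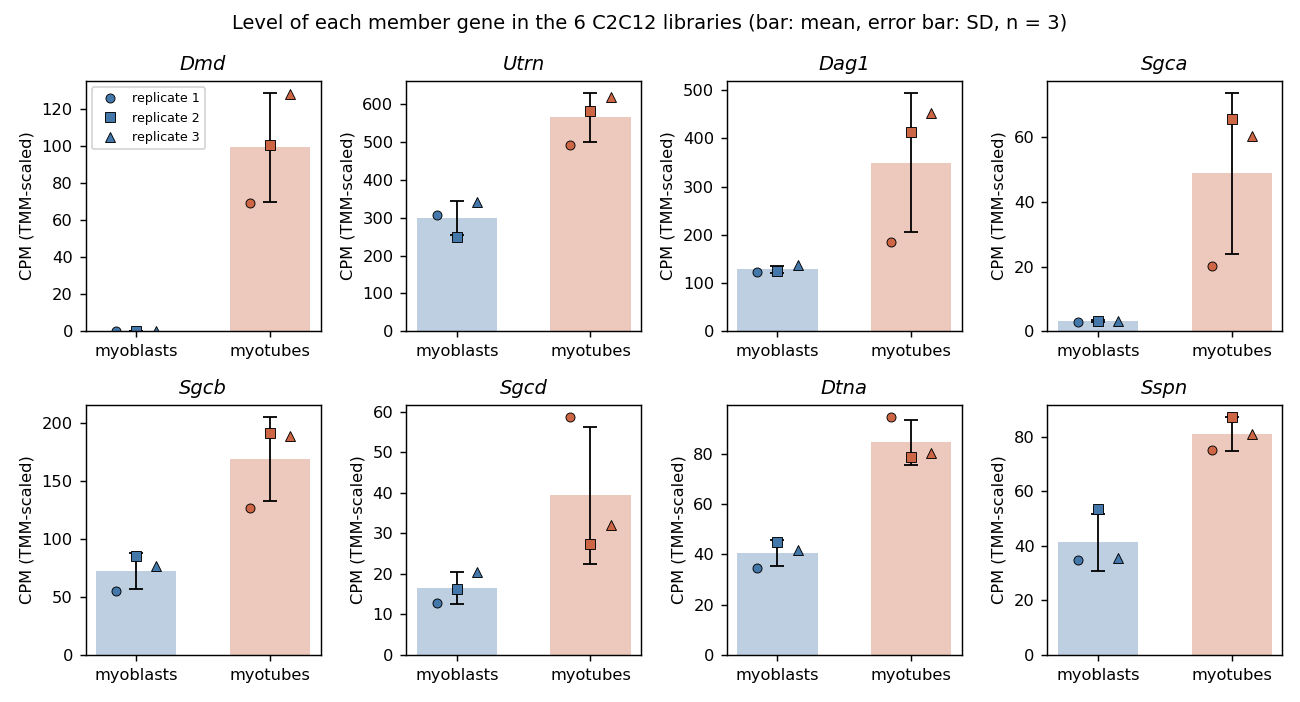
Level of each member in CPM (TMM-scaled, vertical axis from 0, a separate scale in each panel) in the 3 myoblast and 3 myotube libraries. Bars are means, error bars are SD, and symbols mark the replicate number. No panel has overlapping groups, and myotube replicate 1 is the lowest myotube library in 6 panels and the highest in those of Sgcd and Dtna.

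Upstream sequence is shown for Dmd, Dag1 and Sgca. Dmd and Sgca had the lowest mean levels per length of the 8 members in myoblasts and the largest fold changes. Dag1 had the highest mean level per length in both groups, although Sgcb stood above it in myoblast replicate 2 and myotube replicate 1. In mean CPM, Utrn stood above Dag1 in both groups. Each window is the 250 bases before an annotated start, from RefSeq on GRCm38.p6, the assembly also called mm10, written 5′ to 3′ on the gene's strand. Capitals mark motif matches.
Dmd, first listed start, chrX:82948620-82948869, plus strand: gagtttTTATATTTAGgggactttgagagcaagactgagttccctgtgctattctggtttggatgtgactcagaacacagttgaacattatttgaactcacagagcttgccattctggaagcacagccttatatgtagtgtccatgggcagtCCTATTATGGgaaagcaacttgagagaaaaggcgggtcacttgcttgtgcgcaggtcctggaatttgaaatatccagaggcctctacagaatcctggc
Dmd, second listed start, chrX:85048045-85048294, plus strand: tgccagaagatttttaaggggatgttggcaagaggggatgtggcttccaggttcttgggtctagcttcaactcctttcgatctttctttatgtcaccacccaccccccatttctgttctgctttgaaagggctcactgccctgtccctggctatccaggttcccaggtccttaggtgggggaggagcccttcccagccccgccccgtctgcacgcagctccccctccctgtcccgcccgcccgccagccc
Sgca, chr11:94976328-94976577, minus strand: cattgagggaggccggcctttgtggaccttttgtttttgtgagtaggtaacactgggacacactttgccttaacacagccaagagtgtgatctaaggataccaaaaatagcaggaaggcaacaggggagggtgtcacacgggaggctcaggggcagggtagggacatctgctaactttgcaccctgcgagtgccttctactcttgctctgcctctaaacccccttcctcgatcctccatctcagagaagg
Dag1, first listed start, chr9:108263959-108264208, minus strand: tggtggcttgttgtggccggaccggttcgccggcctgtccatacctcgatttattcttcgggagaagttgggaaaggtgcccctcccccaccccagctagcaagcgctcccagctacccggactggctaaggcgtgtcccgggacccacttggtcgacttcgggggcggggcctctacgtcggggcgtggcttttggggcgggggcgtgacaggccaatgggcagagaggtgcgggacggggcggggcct

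Windows on chromosome 18, where Dtna lies, were left out throughout. RefSeq windows of the other 7 of the 8 members were used, 10 windows in all. They were searched on both strands for CAGCTG, for CACCTG or CAGGTG (E-boxes, the kind of site that myogenic factors bind), for the CArG box bound by serum response factor and for the MEF2 site. Over all 32851 windows of this length, 13.0% held CAGCTG, 17.2% held CACCTG or CAGGTG, 1.47% held a CArG box and 2.92% held a MEF2 site. Among the members' windows, matches were found in 1, that of the first listed Dmd start. It holds a CArG box beginning 98 bases before the start and a MEF2 site beginning 244 bases before it, and they do not overlap. The other 9 windows held none of these letters, which says nothing of the factors themselves. Base composition differed widely. The first Dmd window has 45.2% G or C and 2 CpG dinucleotides, the second Dmd window 60% and 7, the Sgca window 52.8% and 4, and the Dag1 window shown 67.6% and 21. The medians over all windows are 52.4% and 6. The 2 listed Dmd starts lie 2099425 bases apart, and the counts, summed over the gene, do not separate them. The annotated span of Dmd begins upstream of both, at 82814664, and no window there was searched. The spans of Sgcd and Utrn likewise reach upstream of the windows searched.

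Dmd encodes dystrophin and was the member with the largest difference. The gene (ENSMUSG00000045103.19) spans 2390387 bases of chromosome X on GRCm38.p6, from 82814664 to 85205050. Myoblast replicates 1, 2 and 3 gave 0, 1 and 0 counts, where a count of 0 allows up to 0.0501 CPM in replicate 1 and 0.141 CPM in replicate 3. In myotubes it had 1796, 3088 and 2211 counts, or 69.4, 101 and 128 CPM, with a mean of 99.4 ± 29.4 CPM (SD, n = 3). Dmd RNA was thus near the limit of detection in all 3 myoblast libraries and was plainly present in all 3 myotube libraries. Against the single myoblast count, the ratio of the depth-scaled totals was 11750, with a 95% counting interval of 2108 to 464200 that covers counting error only. The fitted log2 fold change was 13.01 ± 0.55 (SE, edgeR adjusted p = 3.08e-05). It rests on that single count and is no bound, and it ranged from 12.23 without myoblast replicate 1 to 14.58 without myoblast replicate 2.

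Utrn encodes utrophin, which occupies the place of dystrophin in many non-muscle cells and in developing muscle. The gene (ENSMUSG00000019820.11) lies on chromosome 10, from 12382187 to 12869888. It was abundant in myoblasts, at 308, 250.5 and 341 CPM, and higher in myotubes, at 494, 584 and 619 CPM. The log2 fold change was 0.92 ± 0.20 (SE, edgeR adjusted p = 0.00882), with group means of 299.8 ± 45.7 and 566 ± 64.7 CPM (SD, n = 3). Without myoblast replicate 2 it was 0.79 and was no longer called (adjusted p = 0.0506).

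Dmd and Utrn were also compared within each library, per length. In FPKM (here TMM-scaled CPM divided by gene length in kilobases), Dmd stood at 2.92, 4.23 and 5.38 in myotubes, and Utrn at 28.9, 34.1 and 36.2. The ratio of Dmd to Utrn was 0.101, 0.124 and 0.149 in myotube replicates 1, 2 and 3. Utrn RNA therefore remained above Dmd RNA per length in each myotube library. With 0.5 counts added to each gene, the log2 ratio was -14.39 ± 1.22 in myoblasts and -3.02 ± 0.28 in myotubes (SD, n = 3). The difference of 11.37 had p = 0.1 in a two-sided exact permutation test, the smallest p that 3 libraries against 3 allow. Its size depends on the count added, and with 2 counts it was 9.70. Leaving out myoblast replicate 1 gave 10.74, and leaving out myoblast replicate 2 gave 11.95.

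Dag1 encodes dystroglycan, the laminin receptor at the core of the complex. The gene (ENSMUSG00000039952.15) lies on chromosome 9, from 108204861 to 108263977. It stood at 122, 126 and 137 CPM in myoblasts. In myotubes it reached 185, 413 and 453 CPM, so replicate 1 lay far below the other 2. The means were 128 ± 7.44 and 350.0 ± 144 CPM (SD, n = 3), which gave a log2 difference of 1.45 ± 0.32 (SE, edgeR adjusted p = 0.00879). Myotube replicate 1 was also the replicate with the lowest sarcomere sum and the highest proliferation sum. Dag1 remained called without it, with a log2 fold change of 1.73.

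The sarcoglycans form a subcomplex in the muscle membrane. Sgca, Sgcb and Sgcd encode alpha-, beta- and delta-sarcoglycan. Sgca (ENSMUSG00000001508.15, chromosome 11, 94962777 to 94976327) was low in myoblasts, at 166, 128 and 70 counts, or 2.77, 3.12 and 3.28 CPM. Myotubes gave 522, 2017 and 1041 counts, or 20.2, 65.7 and 60.3 CPM. Its groups were far apart although myotube replicate 1 lay far below the others, and the log2 fold change was 4.0 ± 0.45 (SE, edgeR adjusted p = 0.000514). Sgcb (ENSMUSG00000029156.11, chromosome 5, 73632749 to 73647737) was already abundant in myoblasts, at 55.2, 85.5 and 76.9 CPM. It reached 127, 191 and 189 CPM in myotubes, a log2 fold change of 1.22 ± 0.24 (SE, edgeR adjusted p = 0.00513). The beta subunit thus began from a much higher level than the alpha subunit and rose less in fold.

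Sgcd (ENSMUSG00000020354.15, chromosome 11, 46971077 to 47989451) encodes delta-sarcoglycan, which is also found in smooth muscle. It stood at 12.7, 16.3 and 20.5 CPM in myoblasts and at 58.8, 27.4 and 32.0 CPM in myotubes. In contrast to Dag1, Sgca and Sgcb, its highest myotube library was replicate 1. The log2 fold change was 1.26 ± 0.32 (SE, edgeR adjusted p = 0.0159). The call was lost without myoblast replicate 1 (1.09, adjusted p = 0.0533) and without myoblast replicate 2 (1.23, adjusted p = 0.0602). Without myotube replicate 1 the log2 fold change was 0.83 (adjusted p = 0.0155).

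Sspn encodes sarcospan, a membrane protein that binds the sarcoglycans. The gene (ENSMUSG00000030255.13) lies on chromosome 6, from 145931873 to 145965225. It stood at 34.7, 53.4 and 35.7 CPM in myoblasts and at 75.0, 87.4 and 80.9 CPM in myotubes. Its myotube libraries were close together, and the log2 fold change was 0.98 ± 0.21 (SE, edgeR adjusted p = 0.0077).

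Dtna encodes alpha-dystrobrevin, a relative of dystrophin that binds it together with the syntrophins. The gene (ENSMUSG00000024302.16) lies on chromosome 18, from 23310006 to 23659719. It stood at 34.8, 44.8 and 41.7 CPM in myoblasts and at 94.9, 78.7 and 80.3 CPM in myotubes. The highest myotube library was again replicate 1, by a small margin. The log2 fold change was 1.07 ± 0.17 (SE, edgeR adjusted p = 0.00241).

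**Figure D2:**
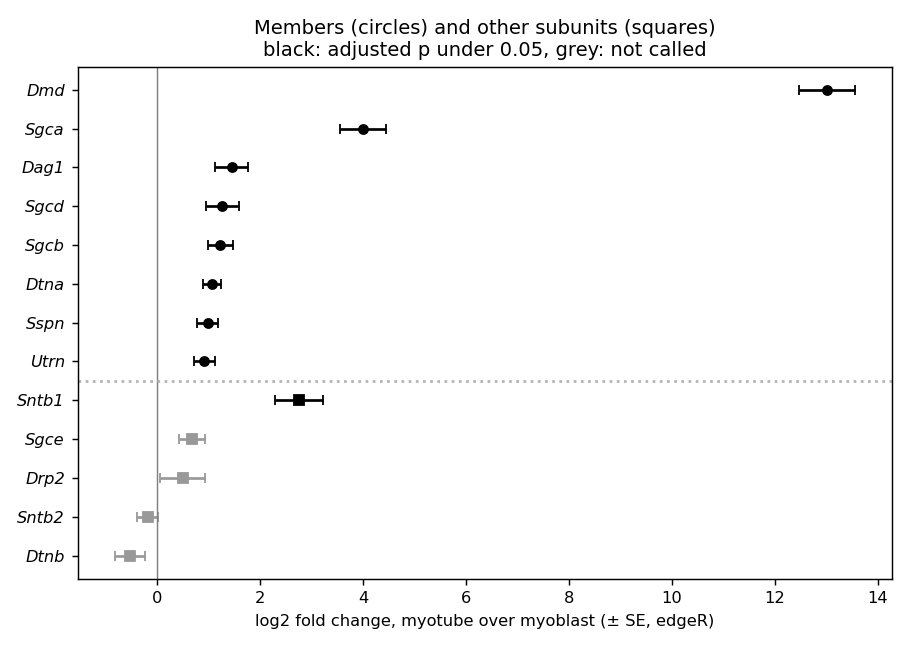
Log2 fold change of myotubes over myoblasts (horizontal axis, points with SE from edgeR, 3 libraries a group) for the 8 members (circles) and the 5 other subunits described (squares). Black symbols have an adjusted p under 0.05. Dmd at 13.01 rests on 1 myoblast count, and apart from it the largest values are those of Sgca at 4.0 and Sntb1 at 2.76.

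Levels per length were ranked between genes, and this ranking depends on the deposited gene lengths. In myotubes the mean was 55.1 ± 22.7 FPKM for Dag1, 41.8 ± 8.99 for Sgcb, 33.1 ± 3.78 for Utrn, 28.1 ± 14.3 for Sgca and 16.2 ± 1.24 for Sspn (SD, n = 3). Far lower were Dtna at 5.00 ± 0.527, Sgcd at 4.77 ± 2.06 and Dmd at 4.18 ± 1.23 FPKM. The libraries of neighbours in this order overlapped except for Sspn and Dtna, although within each myotube library Sgcb stood above Utrn. Per length, the myotube levels thus fell into an upper group of 5 genes and a lower group of 3. These groups did not hold in mean CPM, where Dmd at 99.4 and Dtna at 84.6 stood above Sspn at 81.1 and Sgca at 48.8. The deposited lengths are 23801 bases for Dmd, 16930 for Dtna, 4996 for Sspn and 1735 for Sgca. In myoblasts the order was Dag1 at 20.2 ± 1.17 FPKM, Sgcb at 17.9 ± 3.85, Utrn at 17.5 ± 2.67, Sspn at 8.26 ± 2.10, Dtna at 2.39 ± 0.303, Sgcd at 2.0 ± 0.473 and Sgca at 1.76 ± 0.149. Dmd stood last. There the gaps between libraries lay between Utrn and Sspn, between Sspn and Dtna, and between Sgca and Dmd. Per length, Sgca was the member that moved from the low group of myoblasts into the upper group of myotubes.

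Added over the 8 members, the level per length was 63.0, 72.6 and 74.4 FPKM in myoblasts and 132, 214 and 219 FPKM in myotubes. Sgca made up 8.83, 17.7 and 15.9% of this sum in myotubes. Dmd made up 2.22, 1.98 and 2.46% of it, a small and even share. Utrn made up 28.6, 20.2 and 26.8% in myoblasts and 21.9, 16.0 and 16.5% in myotubes.

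**Figure D3:**
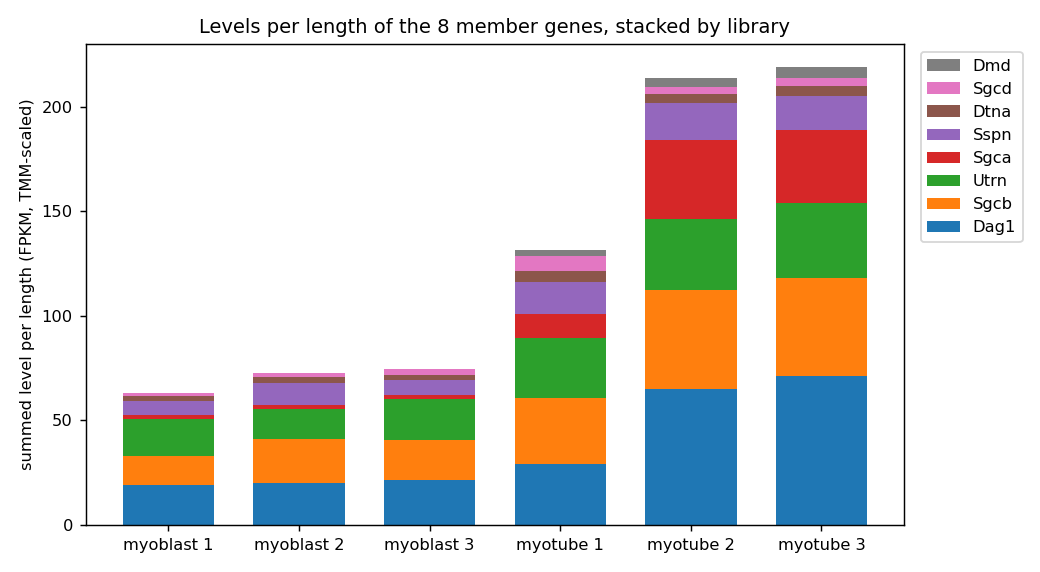
Level per length of the 8 members stacked in each library (vertical axis, summed FPKM from TMM-scaled CPM). The stacks reach 63.0 to 74.4 FPKM in myoblasts and 132 to 219 in myotubes, with myotube replicate 1 the lowest of its group and Dmd a thin layer in each myotube library.

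Of 8 other subunits and paralogs of the complex described here, 5 were tested, and all 5 passed the filter in both groups. By edgeR 1 was called higher and none lower, a share near the 17.5% called higher among all genes that passed in both groups. The median log2 fold change was 0.50 against -0.041 for all genes that passed in both groups. Sntb1 encodes a syntrophin, an adapter that ties signalling proteins to the complex. It stood at 5.65, 11.3 and 9.61 CPM in myoblasts and at 25.5, 70.9 and 83.0 CPM in myotubes. As with Dag1 and Sgca, myotube replicate 1 lay far below the others, and the log2 fold change was 2.76 ± 0.46 (SE, edgeR adjusted p = 0.00291). Its relative Sntb2 was the more abundant in myoblasts, at 76.9, 108 and 89.8 CPM, and stood at 96.8, 73.6 and 70.0 CPM in myotubes, where the groups overlapped. Not called were Sgce (0.68 ± 0.25, adjusted p = 0.0586), Drp2 (0.50 ± 0.43, adjusted p = 0.385), Sntb2 (-0.19 ± 0.20, adjusted p = 0.474) and Dtnb (-0.53 ± 0.30, adjusted p = 0.186). Of these, Drp2 was called with the replicate block (0.50, adjusted p = 0.038) and Dtnb was called lower without myotube replicate 1 (-0.86, adjusted p = 0.0301). Sgce was called without the low-count filter (adjusted p = 0.0404) and with a minimum mean count of 50 (adjusted p = 0.0444). Sgcz, Sntg1 and Sntg2 had too few counts to be tested.

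The makeup of the sarcoglycan RNA differed between the groups. It is given as shares of the summed level per length of 4 genes, Sgca, Sgcb, Sgcd and Sgce, the last of which encodes epsilon-sarcoglycan, a paralog that takes the place of alpha-sarcoglycan outside striated muscle. Sgcb made up 72.4, 76.7 and 74.0% of this sum in myoblasts and 56.8, 51.7 and 52.8% in myotubes. Sgca made up 8.49, 6.54 and 7.38% in myoblasts and 21.0, 41.5 and 39.3% in myotubes. Sgca RNA thus approached Sgcb RNA in myotube replicates 2 and 3 and stood further below it in replicate 1. Sgcd made up 8.19, 7.19 and 9.70% in myoblasts and 12.9, 3.63 and 4.38% in myotubes. Sgce made up 10.9, 9.54 and 8.91% in myoblasts and 9.26, 3.21 and 3.49% in myotubes. The ratio of Sgca to Sgce per length was 0.777, 0.685 and 0.828 in myoblasts and 2.27, 12.9 and 11.3 in myotubes. Per length, Sgce RNA was thus the more abundant in each myoblast library and Sgca RNA in each myotube library. The deposited lengths are 1735 bases for Sgca and 10612 for Sgce, so this order rests on them in part. In CPM, Sgce stood above Sgca in myotube replicate 1, at 54.3 against 20.2. In myotube replicates 2 and 3 Sgca stood above Sgce in CPM too, at 65.7 and 60.3 against 31.1 and 32.75. The log2 ratio differed by 3.18 (p = 0.1, two-sided exact permutation test, the smallest p possible with 3 against 3), and by 3.98 without myotube replicate 1.

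**Figure D4:**
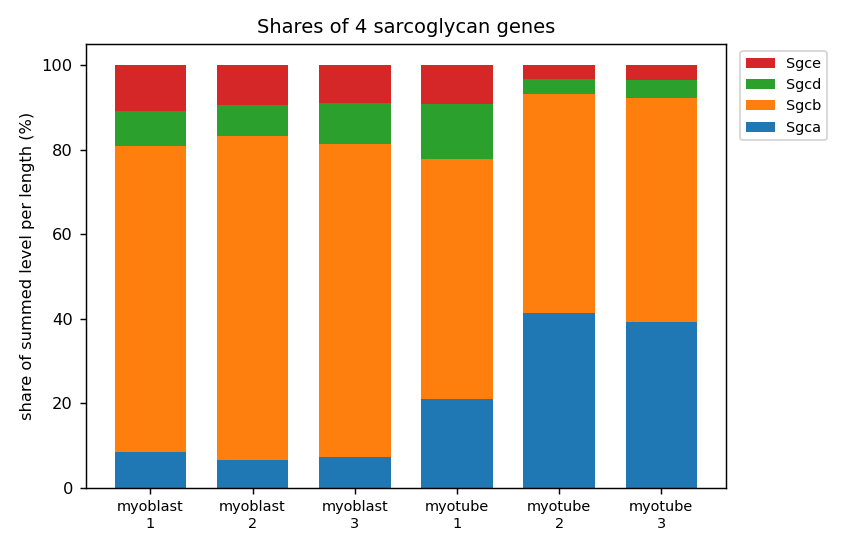
Share of each of 4 sarcoglycan genes in their summed level per length (vertical axis, percent of FPKM) in the 6 libraries. Sgcb makes up 72.4 to 76.7% in myoblasts and 51.7 to 56.8% in myotubes, where Sgca makes up 21.0 to 41.5%.

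The sugar chain of alpha-dystroglycan is built by a set of glycosyltransferases and by enzymes that supply their substrates. Of 16 such genes 14 were tested, all of which passed the filter in both groups, and 1 was called higher, 1 lower and 12 neither. Among all 13029 genes that passed in both groups, 2283 (17.5%) were called higher and 2855 lower. The median log2 fold change of the list was -0.038, against -0.041 for those 13029 genes. Dpm1 and Dpm2, subunits of the enzyme that makes dolichol-phosphate-mannose, changed on the log2 scale by 0.96 ± 0.33 (adjusted p = 0.0476) and -0.53 ± 0.17 (adjusted p = 0.04). Both lay close to the threshold. Dpm1 missed it in each fit that left out 1 library (adjusted p from 0.073 to 0.149) other than the fit without myoblast replicate 1. Dpm2 missed it in each such fit (adjusted p from 0.0549 to 0.14) other than the fit without myotube replicate 2. Averaged over both groups, the highest levels per length were those of Pomgnt1, at 16.2 FPKM in myoblasts and 14.0 in myotubes and not called (-0.21, adjusted p = 0.414), and of Dpm2, at 13.0 and 9.05 FPKM. In myotubes alone the mean of Dpm3 stood above that of Dpm2, at 12.8 FPKM, with 20.5 FPKM in replicate 1. In myotube replicate 2 the order was reversed, with Dpm3 at 8.41 FPKM and Dpm2 at 10.2.

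The extracellular partners are the ligands of dystroglycan and matrix proteins bound near the complex. All 15 were tested, and 8 were called higher and none lower by edgeR, against 20.5% and 19.6% of all tested genes. Lama1 and Lama4 passed the filter on low counts in every myotube library but not in every myoblast library, a selection that favours a higher level in myotubes. Of the 13 that passed the filter in both groups, 6 were called higher, against 17.5% of all genes that did so. Their median log2 fold change was 0.36, against -0.041. Dcn (decorin, a small proteoglycan of collagen fibrils) had a log2 fold change of 8.01 ± 0.97 (SE, edgeR adjusted p = 0.000737), and its 43393 counts in myotube replicate 1 stood against 9848 and 5841 in the others. Without that replicate it was 6.78. Lama4 (a laminin alpha chain) gave 41, 6 and 5 counts in the myoblast libraries and 755, 189 and 129 in those of myotubes, a fitted log2 fold change of 5.22. Col6a2 (a chain of collagen VI) was higher by 4.14 ± 0.70 on the log2 scale (adjusted p = 0.00306). Averaged over both groups, the highest levels per length were those of Col6a1, at 22.2 FPKM in myoblasts and 324 in myotubes and higher by 3.87 ± 0.75 (adjusted p = 0.00529), and of Bgn (biglycan, which binds alpha-dystroglycan and sarcoglycans), at 37.5 and 221 FPKM and higher by 2.56 ± 0.35 (adjusted p = 0.00106). In myoblasts alone the mean of Lamb1 stood above both, at 40.9 FPKM. This order did not hold in myoblast replicate 1, where Lamb1 was at 33.2 FPKM, Col6a1 at 41.2 and Bgn at 37.8.

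Values of this list moved with single libraries. Without myotube replicate 1, Lama4 stood at 4.13 and Col6a1 at 3.12, and Col6a3 was called lower (-1.08, adjusted p = 0.0096). Without myoblast replicate 1, Lama4 stood at 6.25, Col6a1 at 4.66 and Col6a2 at 5.22. Without the low-count filter Col6a1 was not called (adjusted p = 0.0648). Lama2, the laminin chain of adult muscle basement membrane, was singled out after its values were seen. Its level was 35.2 ± 3.98 CPM in myoblasts and 104 ± 22.5 CPM in myotubes (SD, n = 3), and its log2 fold change was 1.56 ± 0.21 (SE, edgeR adjusted p = 0.00103).

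Costameres are the sites where the complex and the integrins fasten the outermost myofibrils to the membrane. Of 23 costamere and membrane partner genes, all tested, 12 were called higher and 2 lower, against 20.5% and 19.6% of all tested genes. Cav3, Nos1 and Capn3 passed the filter in every myotube library but not in every myoblast library, which favours a higher level in myotubes. Of the 20 that passed the filter in both groups, 9 were higher and 2 lower, where 17.5% of all such genes were higher. Their median log2 fold change was 0.64, against -0.041. Sync (1.24, adjusted p = 0.0416) and Ank3 (0.60, adjusted p = 0.0433) were called higher close to the threshold. Neither was called with library size scaling, limma-voom or no low-count filter (adjusted p from 0.0507 to 0.123). In the fits that left out 1 library, 9 to 13 genes of the list were called higher. Cav3 (muscle caveolin) gave 7, 14 and 3 counts in the myoblast libraries and 745, 2812 and 1147 in those of myotubes, a fitted log2 fold change of 8.26, which was 8.91 without myoblast replicate 2. Nos1 (neuronal nitric oxide synthase, held at the membrane by syntrophin and dystrophin) stood at 0.357 ± 0.165 CPM in myoblasts and 33.2 ± 5.31 CPM in myotubes (SD, n = 3), a fitted difference of 6.42 on the log2 scale. Capn3 (a muscle calpain) gave 20, 12 and 1 counts in the myoblast libraries and 119, 346 and 218 in those of myotubes. Cavin4 (a muscle caveolar coat protein), which passed in both groups, rose by 3.32 ± 0.37 (adjusted p = 0.00048). Des (desmin, the muscle intermediate filament) rose by 1.83 ± 0.40 (adjusted p = 0.00872). Averaged over both groups, Des and Actg1 had the highest levels per length of the list. Des stood at 133 FPKM in myoblasts and 474 in myotubes, and Actg1 at 543 and 118. In myoblasts alone Itgb1 (mean 238 FPKM) and Cavin1 (208) also stood above Des. In myotubes alone Itgb1 (333), Cavin4 (148), Itga7 (145) and Cavin1 (121) also stood above Actg1.

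The lower genes were Actg1 and Cavin1. Actg1 (cytoplasmic gamma-actin, the actin that dystrophin binds at costameres) stood at 1442 ± 276 CPM in myoblasts and 313 ± 127 CPM in myotubes (SD, n = 3), and its log2 fold change was -2.20 ± 0.35 (SE, edgeR adjusted p = 0.00223). Cavin1 changed by -0.78 ± 0.22 (adjusted p = 0.0215), and was not called without myoblast replicate 2 (adjusted p = 0.061), myotube replicate 2 (0.0664) or myotube replicate 3 (0.0758). With the replicate block, Plec (plectin) was also called lower (-0.85, adjusted p = 0.0299) and Flnc (filamin C) higher (0.86, adjusted p = 0.0455). In the fit as reported, with no block, neither was called, at -0.82 (adjusted p = 0.0892) and 0.97 (adjusted p = 0.0804). Plec was called lower as well with library size scaling (adjusted p = 0.048), DESeq2 (0.0442) and no low-count filter (0.028). Flnc was called higher as well with DESeq2 (adjusted p = 0.045) and without myotube replicate 1 (1.29, adjusted p = 0.00277).

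**Figure D5:**
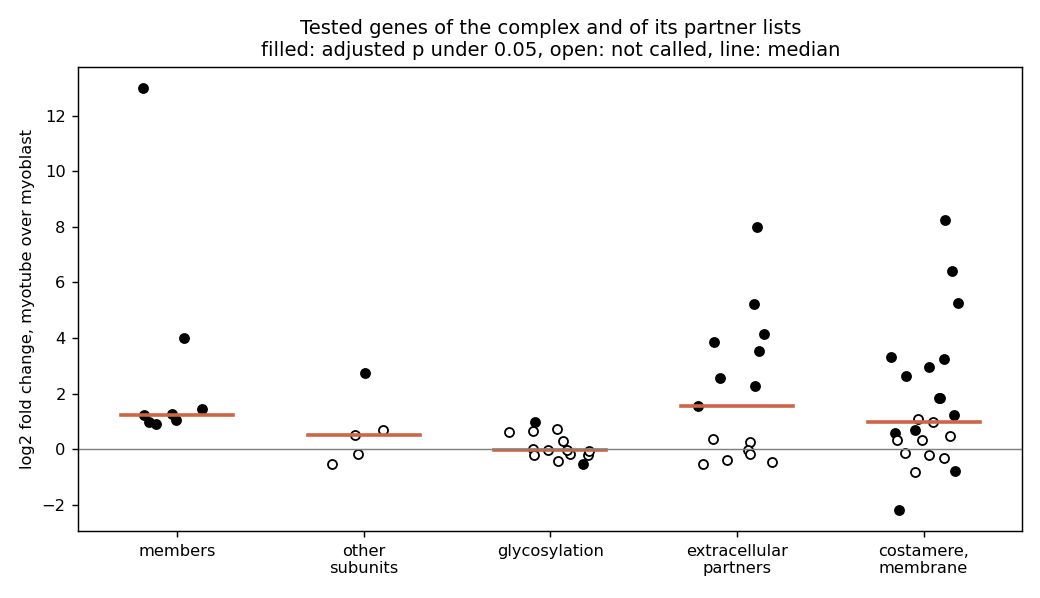
Log2 fold change of myotubes over myoblasts (vertical axis) for each tested member and each tested gene of the 4 partner lists described here. Filled points have an edgeR adjusted p under 0.05, open points do not, and lines are medians over the tested genes. Glycosylation genes lie around 0 with 2 calls, while the extracellular and costamere lists reach from below 0 to above 8.

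The genes whose profile was most like that of a member were found by the distance between centred log2 CPM profiles over the 6 libraries, among 10638 genes with a mean of at least 4 CPM. Nearest to Dmd were Myh4 (distance 0.918), Casq1 (1.45) and Myh2 (1.66), 2 fast myosin heavy chains and the calcium-binding protein of the fast sarcoplasmic reticulum. Nearest to Dag1 were Rhobtb2 (0.2), Usp28 (0.229) and Zbtb18 (0.24). Nearest to Utrn were Hlcs (0.186), Baz2b (0.214) and Ubn2 (0.219). The distances of Dmd are larger, beside its larger fold change. Profiles were centred but not scaled, so the nearest genes must have a fold change of similar size. Myh4 and Myh2, like Dmd, passed the filter on low counts only through the myotubes. Their nearness to Dmd therefore follows in part from low myoblast counts and a large fold change.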

How the data were processed

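Total RNA of C2C12 cells in 6 libraries was sequenced from ribosome-depleted, stranded libraries, per the labels' protocols. The authors deposited raw counts per gene with gene lengths, and these counts were used as deposited. The submitters' processing notes name bcl2fastq, STAR 2.5.1b, featureCounts 1.5.1, Salmon 0.12.0, DESeq2 1.18.1 and the build mm10, without roles. How strand was treated in counting is not given in the sources used here. Values of genes that overlap another gene may therefore hold its reads. Of 55385 gene identifiers, 54487 were found in the gene name table. Small RNA and normalised tables were not analysed here.

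Counts were tested with edgeR 4.0.16 under R 4.3.3, with TMM scaling, the default expression filter by group (minimum count 10), and its quasi-likelihood F-test (robust option, group as the one factor), fitted on all genes. P-values were adjusted by Benjamini-Hochberg over the 15932 genes that passed. Standard errors (SE) were obtained from each gene's log2 fold change and the root of its F statistic. FPKM was computed here from TMM-scaled CPM and the deposited lengths. The 12 alternatives were library size scaling, DESeq2 1.42.0, limma-voom (limma 3.58.1), no filter, a mean count of at least 50, a replicate block and each library left out. Same-numbered libraries deviated from their group means together (correlations 0.232, 0.189 and 0.17 across tested genes), which was taken as a possible pairing from the replicate numbers in the labels. Myoblast 3 and myotube 2, differently numbered, correlated at 0.358. Replicate pairs differed by 94.4 to 259.9 in chi-square per degree of freedom, so no pair was counted as 1 sample. Intervals and floors (3 counts) are at the 95% level and cover counting error only.

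The members and all lists were chosen with earlier results of these data known. Some genes of the partner lists are not reported here, and the counts and medians of those lists leave them out. Named were all members and, of each partner list, up to 4 called genes in each direction by size of change, the 2 genes with the highest mean level per length, and the genes not called or going against the rest where 5 or fewer. For Dmd, Dag1 and Utrn the 3 nearest profiles were named. Other genes were chosen after their values were seen.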

Additional observations from a re-analysis of the deposited data

How the results depend on the processing

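Over the 12 alternatives, the 8 members gave 96 values, all higher in myotubes and 93 of them called. The exceptions were Utrn and Sgcd in fits that left out 1 myoblast library. The replicate block left all 8 called higher. Other subunits called higher numbered 2 with no low-count filter or with a minimum mean count of 50 (Sntb1 and Sgce) and 2 with the replicate block (Sntb1 and Drp2). Dystroglycan glycosylation genes called higher numbered 0 with library size scaling, with limma-voom and with no low-count filter, where Dpm1 had adjusted p = 0.0988, 0.0515 and 0.0682. Those called lower numbered 2 with library size scaling (Dpm2, and Pomt1 at adjusted p = 0.0497) and 0 with no low-count filter or a mean count of at least 50. Extracellular partners called lower numbered 2 with library size scaling, Lamb1 and Lamc1. Leaving out 1 replicate each, counts ranged from 0 to 1 (glycosylation, higher), 0 to 1 (glycosylation, lower), 1 to 2 (costamere, lower), 0 to 1 (other subunits, lower) and 0 to 1 (extracellular, lower). The difference in the log2 ratio of Dmd to Utrn was 9.70 with 2 counts added and has no value with none added, since Dmd had no count in myoblast replicates 1 and 3. The causes were not tested. Depth limits the statement on Dmd in myoblasts to its near absence.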
